A study of Mus musculus with 10 samples.

Results

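The mitochondrial ribosomal protein genes are the nuclear genes with a platform symbol of Mrpl or Mrps followed by a number, and 76 of the 18193 genes that had a probe set of their own were found this way. Of these, 47 carried an Mrpl symbol and 29 an Mrps symbol. They were covered by 156 probe sets assigned to 1 such gene alone, and the value of a gene was that of its probe set with the highest mean log2 intensity over all 10 arrays. Mrpl30 and Mrpl53 appeared only on probe sets shared with another gene and were left out.

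Transcripts were measured on 1-colour arrays in mouse eggs arrested in metaphase of meiosis II, separated into parts by microsurgery. The spindle-chromosome complex (SCC, 3 arrays, replicates 1 to 3) is the spindle with its chromosomes after removal from the egg. The cytoplast (4 arrays, replicates 1 to 4) is what remains of the egg without them, and the MII oocyte (3 arrays, replicates 2 to 4) is the whole, unoperated egg. All 3 groups came from superovulated B6D2F1 females, which received eCG and, 48 h later, 5 IU of hCG, and eggs were taken 16 h after that and stripped of cumulus cells with hyaluronidase. Neither the number of eggs in a sample nor the age of the females is stated in the labels. The comparisons bear on whether these maternal transcripts stand at a different relative level at the spindle.

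Mitochondria carry their own ribosome, which translates the few proteins encoded in mitochondrial DNA, all of them part of the respiratory chain and ATP synthase. Its RNA is made inside the organelle, whereas its proteins are encoded in the nucleus, made on cytosolic ribosomes and imported. Many have a counterpart in the bacterial ribosome and others are found in mitochondria only. The oocyte hands its mitochondria and a store of such transcripts to the embryo.

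Array medians ran from 15.6 to 16.6 in intensity. The 95th percentile of an array was 719 ± 88.2 (SD, n = 3) in the SCC, 580 ± 46.2 (n = 4) in the cytoplast and 568 to 711 in the MII oocyte. The gap between the 3′ and the 5′ control of beta-actin ran from 3.27 to 3.65 log2 units in the SCC. It ran from 3.66 to 5.29 in the cytoplast and from 3.33 to 4.42 in the MII oocyte. RNA integrity and the 2 rounds of amplification both enter this gap and cannot be told apart. All 12 oocyte markers were above background on every array except 1 MII oocyte array with 11, and of 20 cumulus and granulosa markers 0 to 2 were. The summed intensity of those 20 was 678 to 836 in the SCC, 615 to 748 in the cytoplast and 638 to 752 in the MII oocyte. Of the 20, 18 were below background on every array, among them Has2, Ptx3 and Tnfaip6. Kitl was above it on 3 of 3 SCC, 2 of 4 cytoplast and 1 of 3 MII oocyte arrays (158.0 ± 41.0 in the SCC, 96.1 ± 26.1 in the cytoplast, limma unadjusted p = 0.0227, adjusted p = 0.156), and Nr5a2 on 2 of 3, 3 of 4 and 1 of 3 in the same order of groups. The part of Kitl, of the beta-actin gap and of the upper percentile in the results below was not tested. Since the labels speak of biological replicates but name no pools or animals, the p-values reflect the spread among these arrays, whose number limits the precision.

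Background was set on each array at the 95th percentile of 37 genes of other tissues (intensity 95.3 to 158). That list held Cpa1, at 2697 to 7441 on these arrays. The level lies well above the array medians (15.6 to 16.6), so a gene below it is not shown to be absent. By this measure 14 members were above background on all 10 arrays, 16 on some and 46 on none. SCC arrays had 17 to 25 members above it, cytoplast arrays 20 to 27 and MII oocyte arrays 20 to 24. The level itself ran higher in the SCC (98.9 to 158) than in the cytoplast (95.3 to 113). Member means spanned an intensity of 7.21 to 3606, but probe sets differ in how well they bind, so these do not rank transcript amounts. Of the 76, 69 lay above the median of the array on at least 3 arrays and were tested. The 7 not tested were Mrpl12, Mrpl27, Mrpl36, Mrpl42, Mrpl43, Mrpl49 and Mrps34, at intensities between 6.48 and 20.6 on every array.

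Of the 69 tested members, 6 stood higher in the SCC than the cytoplast and none lower. The 6 were Mrpl32 and Mrpl44 of the large subunit and Mrps2, Mrps9, Mrps14 and Mrps33 of the small subunit, 1.35-fold to 2.12-fold higher. Of all genes tested with 1 probe set each, 8.03% were higher and 0.275% lower (6.74% and 0.274% of all probe sets), so the share of members called (8.70%) was near that of genes at large. Differences were tested with limma across all 23737 probe sets that passed the filter, and a call is an adjusted p under 0.05. At an unadjusted p under 0.05, 14 members were higher and 1 lower, against 18.4% and 3.89% of genes. These amounts are relative within a sample of amplified RNA. More of one transcript and less of the others cannot be told apart, nor can fewer eggs or parts in a sample and less RNA in each.

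**Figure D1:**
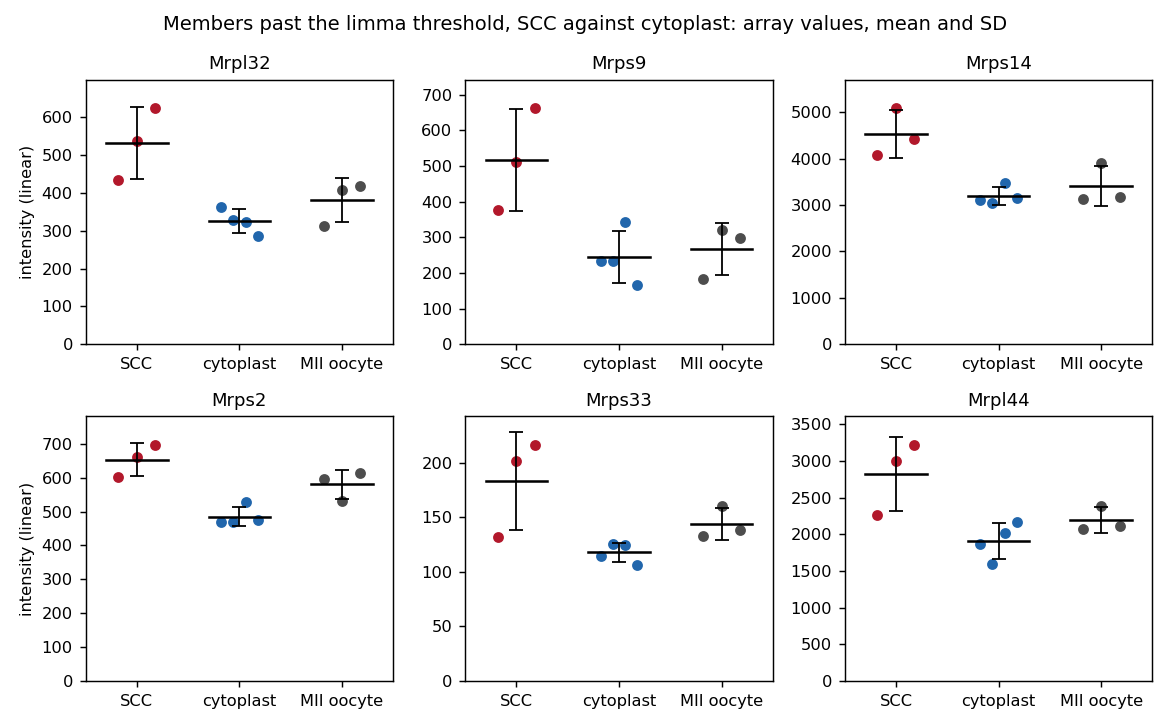
Intensity (linear scale from 0) of the 6 members past the limma threshold, on each SCC, cytoplast and MII oocyte array. Points are arrays, the horizontal line is the group mean and the bar its SD (n = 3, 4 and 3). In each panel the 3 SCC arrays lie above the 4 cytoplast arrays.

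The sequences just before the start of these 6 genes are shown because they are the members on which the comparison turns. They are RefSeq promoters of the GRCm38.p6 build, 120 bases ending at the base before the annotated start, 5′ to 3′ on the strand of the gene. Capitals mark matches to 5 motifs on either strand: CCGGAAG of ETS factors, AAGATGGCG of YY1, GGGCGG of SP1, TATAAA, the TATA box, and the palindrome of nuclear respiratory factor 1 (NRF1), whose 10 letters are the first capitals of Mrpl32.
Mrpl32 (chr13:14613038-14613157, minus strand): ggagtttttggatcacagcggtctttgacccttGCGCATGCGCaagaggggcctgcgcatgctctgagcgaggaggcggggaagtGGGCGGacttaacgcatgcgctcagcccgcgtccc
Mrps9 (chr1:42851113-42851232, plus strand): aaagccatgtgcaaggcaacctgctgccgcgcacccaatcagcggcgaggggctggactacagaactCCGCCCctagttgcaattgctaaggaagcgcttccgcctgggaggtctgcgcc
Mrps14 (chr1:160195095-160195214, plus strand): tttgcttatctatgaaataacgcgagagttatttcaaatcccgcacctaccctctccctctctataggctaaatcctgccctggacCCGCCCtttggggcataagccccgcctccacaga
Mrps2 (chr2:28467946-28468065, plus strand): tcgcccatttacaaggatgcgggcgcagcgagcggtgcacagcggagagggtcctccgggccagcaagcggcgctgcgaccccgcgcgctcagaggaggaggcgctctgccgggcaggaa
Mrps33 (chr6:39810937-39811056, minus strand): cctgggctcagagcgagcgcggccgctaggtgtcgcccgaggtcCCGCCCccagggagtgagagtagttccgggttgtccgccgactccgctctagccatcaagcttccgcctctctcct
Mrpl44 (chr1:79775898-79776017, plus strand): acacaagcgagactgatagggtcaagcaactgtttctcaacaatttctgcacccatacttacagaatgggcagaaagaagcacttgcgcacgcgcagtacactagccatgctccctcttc

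Within these stretches Mrpl32 held the NRF1 motif, which reads the same on both strands, and 1 SP1 motif. Mrps9, Mrps14 and Mrps33 held 1 SP1 motif each, and Mrps2 and Mrpl44 held none of the 5. The full RefSeq windows run from 250 bases before to 50 after the start, and 67 of the 76 members had one. The ETS motif was in the window of 25 of the 67 (37.3%), against 12.9% of 17492 protein-coding genes, and the YY1 motif in 8 (11.9%), against 2.14%. The NRF1 motif was in those of Mrpl9, Mrpl32 and Mrpl39 (4.48%, against 1.47%). SP1 motifs were in 50.7% of members and 49.2% of protein-coding genes, and TATA boxes in 7.46% and 14.8%. No ETS match overlapped a YY1 match in a member. Of the 6 genes higher in the SCC, Mrps33 alone had an ETS motif in its full window and none had a YY1 motif. A match is a description of the letters and not a bound site.

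Mrps9, the counterpart of bacterial ribosomal protein S9, had the largest difference among the 6. Its intensity was 376.5, 510.5 and 662.9 in the SCC and 234.4, 234.4, 343.3 and 167.0 in the cytoplast. The MII oocyte arrays gave 184.0, 321.0 and 298.4. All SCC arrays lay above all arrays of both other groups. Mrps9 was 2.12-fold higher in the SCC than the cytoplast (log2 difference 1.09, SE 0.27, limma adjusted p = 0.0333).

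Mrps9 also had 3 dimmer probe sets that were tested. One averaged 265.5 ± 28.5 in the SCC, against 177.1 ± 19.4 in the cytoplast (log2 0.58, limma adjusted p = 0.0263). Another, below background on every array, averaged 97.4 ± 13.8 in the SCC, against 53.4 ± 10.3 in the cytoplast (limma adjusted p = 0.026). The dimmest, far below background, averaged 22.4 ± 0.731 in the SCC, against 21.7 ± 2.88 in the cytoplast (limma adjusted p = 0.879). So 3 of the 4 probe sets of Mrps9 passed in the same direction.

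**Figure D2:**
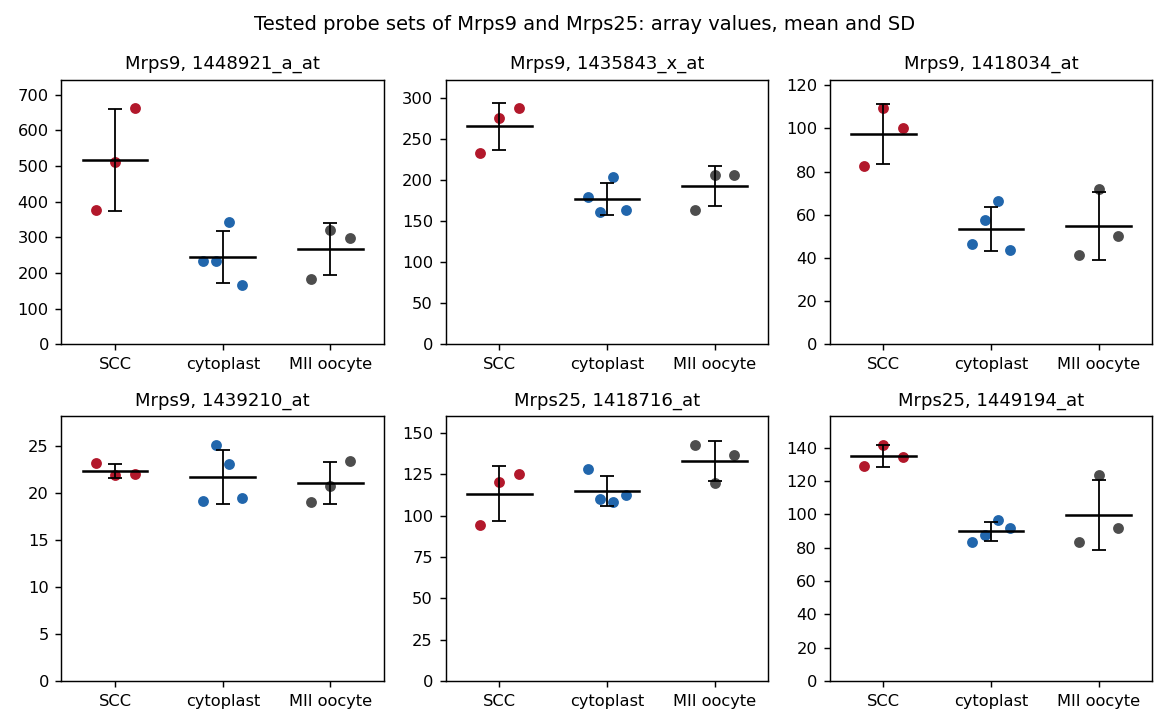
Intensity (linear scale from 0) of the tested probe sets of Mrps9 (4) and Mrps25 (2) on each array, with group means and SDs (n = 3 SCC, 4 cytoplast, 3 MII oocyte). The 3 brighter probe sets of Mrps9 separate SCC from cytoplast arrays, whereas for Mrps25 the dimmer of the 2 does so and the brighter does not.

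Mrpl32, a large subunit protein with a bacterial counterpart that is trimmed by a protease of the inner membrane after import, had the smallest p among members. It was at 434.8, 536.2 and 624.5 in the SCC and at 363.4, 328.9, 323.8 and 286.7 in the cytoplast. The MII oocyte values were 313.8, 408.3 and 419.6, all below the lowest SCC array. It was 1.62-fold higher in the SCC than the cytoplast (log2 0.70, SE 0.15, limma adjusted p = 0.0222).

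Mrps14 and Mrps2 are small subunit proteins with bacterial counterparts. Mrps14 was at 4072, 5094 and 4437 in the SCC and at 3105, 3041, 3480 and 3148 in the cytoplast, with 3131, 3911 and 3186 in the MII oocyte. It was 1.42-fold higher in the SCC than the cytoplast (log2 0.50, SE 0.12, limma adjusted p = 0.0343). Its next probe set had a similar difference without passing (log2 0.49, limma adjusted p = 0.0592). For Mrps2 the SCC arrays gave 603.0, 661.2 and 697.5 and the cytoplast arrays 468.5, 468.2, 529.0 and 475.9. The SCC stood 1.35-fold above the cytoplast (log2 0.43, SE 0.11, limma adjusted p = 0.0375). MII oocyte arrays of Mrps2, at 595.9, 532.3 and 614.4, overlapped those of the SCC and lay above those of the cytoplast. A second probe set of Mrps2, below background, gave a limma adjusted p of 0.912.

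Mrpl44, a mitochondria-specific protein of the large subunit with a ribonuclease III-like domain, was at 2258, 2999 and 3223 in the SCC and at 1869, 1595, 2021 and 2174 in the cytoplast. The MII oocyte values were 2075, 2392 and 2121, so the lowest SCC array lay among them. Mrpl44 was 1.47-fold higher in the SCC than the cytoplast (log2 0.55, SE 0.15, limma adjusted p = 0.0485). Of its other 3 tested probe sets none passed, the next in brightness with a log2 difference of 0.57 (limma adjusted p = 0.0525). Mrps33, a mitochondria-specific small subunit protein, was at 132.3, 201.8 and 216.6 in the SCC and at 114.5, 125.3, 124.8 and 106.7 in the cytoplast, where 3 of 4 arrays were above background. The MII oocyte gave 132.9, 160.8 and 138.8. Mrps33 was 1.53-fold higher in the SCC than the cytoplast (log2 0.61, SE 0.17, limma adjusted p = 0.0482).

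None of the 6 passed after cyclic loess or after quantile normalization between arrays, where 2.13% and 1.76% of all probe sets were higher, nor when SCC replicate 2, SCC replicate 3 or cytoplast replicate 2 was left out. With the replicate number as a block, Mrps14 and Mrps2 did not pass, and Mrpl22 did. Mrpl32 alone passed without cytoplast replicate 1, and Mrpl22, Mrpl32 and Mrpl44 were higher and Mrpl48 lower without cytoplast replicate 4. Of the 10 runs that left out 1 array, Mrps33 stayed called in 2 and Mrpl44 in 3. Mrps9, Mrps14 and Mrps2 stayed called in 5 each and Mrpl32 in 7. Mrps33 and Mrpl44 also did not pass with the filter dropped, with only the SCC and cytoplast arrays in the fit or with an intensity trend.

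Other members differed by as much without passing. Mrpl18, the counterpart of a bacterial protein of the central protuberance, was at 362.2, 455.1 and 482.6 in the SCC and at 224.5, 280.1, 328.7 and 179.2 in the cytoplast, with no overlap (log2 0.80, SE 0.23, limma adjusted p = 0.0566). Mrpl22, whose bacterial counterpart lines the exit tunnel, was below background on every array, at 69.9, 90.9 and 124.9 in the SCC, against 52.0, 40.8, 51.3 and 66.1 in the cytoplast (limma adjusted p = 0.063). Mrps31, a mitochondria-specific small subunit protein, had 141.6, 118.2 and 179.3 in the SCC, above the 108.4, 105.8, 102.0 and 87.9 of the cytoplast (log2 0.52, limma adjusted p = 0.178). Mrps24, a counterpart of bacterial S3, averaged 92.4 in the SCC, against 60.3 in the cytoplast, below background throughout and with overlap (limma adjusted p = 0.181).

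Mrpl48, a mitochondria-specific protein of the central protuberance, had the most negative difference. It was at 165.0, 112.6 and 137.2 in the SCC and at 381.1, 251.6, 207.5 and 156.8 in the cytoplast, so SCC replicate 1 overlapped cytoplast replicate 4 (log2 -0.79, SE 0.27, limma adjusted p = 0.108). Only 1 of 3 SCC arrays was above background, against 4 of 4 cytoplast arrays. A second probe set of Mrpl48 was below background on every array (limma adjusted p = 0.168). Mrpl41, below background on every array, had 12.68, 12.98 and 24.35 in the SCC, against 26.68, 28.2, 20.64 and 18.39 in the cytoplast (limma adjusted p = 0.262).

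Other members among the 6 brightest did not pass. Mrpl3, the counterpart of a bacterial protein near the peptidyl transferase centre, was at 2065, 2507 and 2747 in the SCC and at 2686, 2198, 2332 and 3321 in the cytoplast, with overlap (log2 -0.10, SE 0.19, limma adjusted p = 0.833). Mrpl39, which is related to threonyl-tRNA synthetases, was at 1387, 1918 and 2296 in the SCC and at 1677, 994.8, 1165 and 2367 in the cytoplast (log2 0.32, SE 0.32, limma adjusted p = 0.658). Mrps36, a subunit of the 2-oxoglutarate dehydrogenase complex despite its name, was at 585.0, 681.3 and 736.8 in the SCC and at 527.9, 433.6, 443.6 and 694.9 in the cytoplast (log2 0.37, limma adjusted p = 0.33). The dimmest members, Mrpl36, Mrpl42, Mrpl43 and Mrps34, had mean intensities of 7.03 to 13.8 in the SCC and 6.95 to 11.9 in the cytoplast and were not tested.

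Over all 76 members, 46 had a positive and 30 a negative SCC minus cytoplast difference, from -0.79 to 1.09 with a median of 0.05. The median over all 18193 genes was 0.0020. In 65 members the difference was smaller than 0.5 either way. SCC and cytoplast arrays did not overlap for 15 members with the SCC higher (19.7%, against 11.6% of all genes) and for 1, Mrps27, which was below background, with it lower (1.32%, against 5.51%). After cyclic loess 44 differences were positive with a median of 0.03, and after quantile normalization 39 with a median of 0.01.

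**Figure D3:**
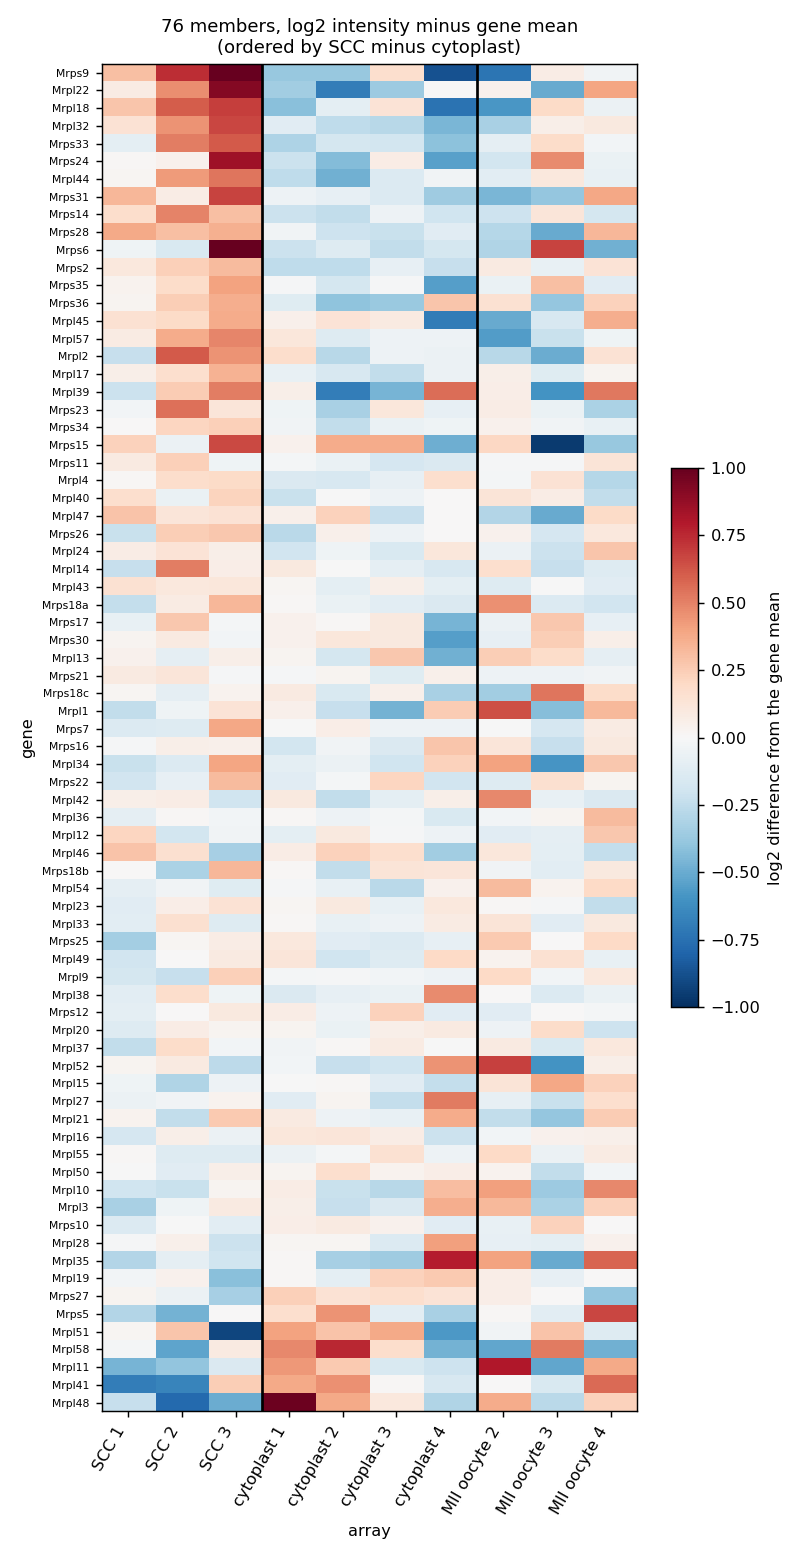
Log2 intensity of the 76 members minus the mean of each gene over the 10 arrays, with genes ordered from the highest to the lowest SCC minus cytoplast difference; the colour scale ends at -1 and 1. Arrays of a group differ among themselves for many genes, such as Mrpl11 in the MII oocyte and Mrpl39 in the cytoplast.

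Of the 29 genes with an Mrps symbol, 24 had a positive difference, with a median of 0.16, and 4 of the 28 tested were called higher (14.3%). Of the 47 with an Mrpl symbol, 22 were positive, with a median of -0.0050, and 2 of the 41 tested were called higher (4.88%). Over all genes 9186 of 18193 were positive, and 8.03% of those tested were called higher. After cyclic loess 21 of 29 and 23 of 47 were positive (medians 0.12 and -0.0010), and after quantile normalization 19 and 20 (medians 0.07 and -0.02). The split between the symbols was noticed in these values and was not tested. The symbols are not the subunits, since Mrps18a and Mrps30 are proteins of the large subunit and Mrps36 is of neither. Sorted by structure, 14 of the 29 large subunit proteins with a bacterial counterpart were positive, with a median of -0.0050, and 10 of the 20 mitochondria-specific ones, with a median of 0.0010. Of the small subunit proteins, 13 of the 16 with a bacterial counterpart were positive, with a median of 0.17, and 8 of the 10 mitochondria-specific ones, with a median of 0.21.

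**Figure D4:**
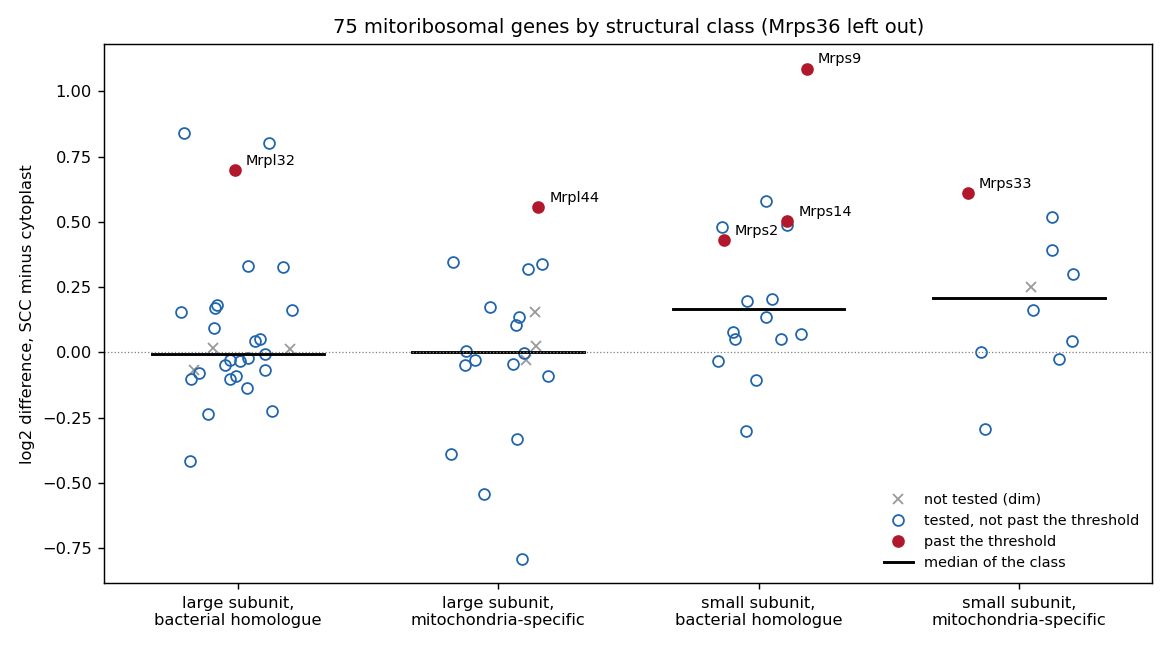
SCC minus cytoplast log2 difference of 75 members (Mrps36 left out) in 4 structural classes. Filled points passed the limma threshold, open points were tested and did not pass, crosses were too dim to test and the bar is the class median, which is near 0 in both large subunit classes and 0.17 and 0.21 in the small subunit classes.

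The members that passed were among the brighter ones. Of 10 members with a mean log2 intensity above 8, 5 were higher in the SCC than the cytoplast (50.0%, against 20.5% of all genes tested in that range), with a median difference of 0.47 against 0.28. Of 27 members between 6 and 8, 1 was higher (3.70%, against 10.9%), with medians of 0.14 and 0.10. Of 39 members under 6, 32 were tested and none was higher, against 1.70% of genes. After cyclic loess the median of the 10 bright members was 0.18 and that of all genes in the range 0.0070. The ranges were chosen after the values were seen.

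**Figure D5:**
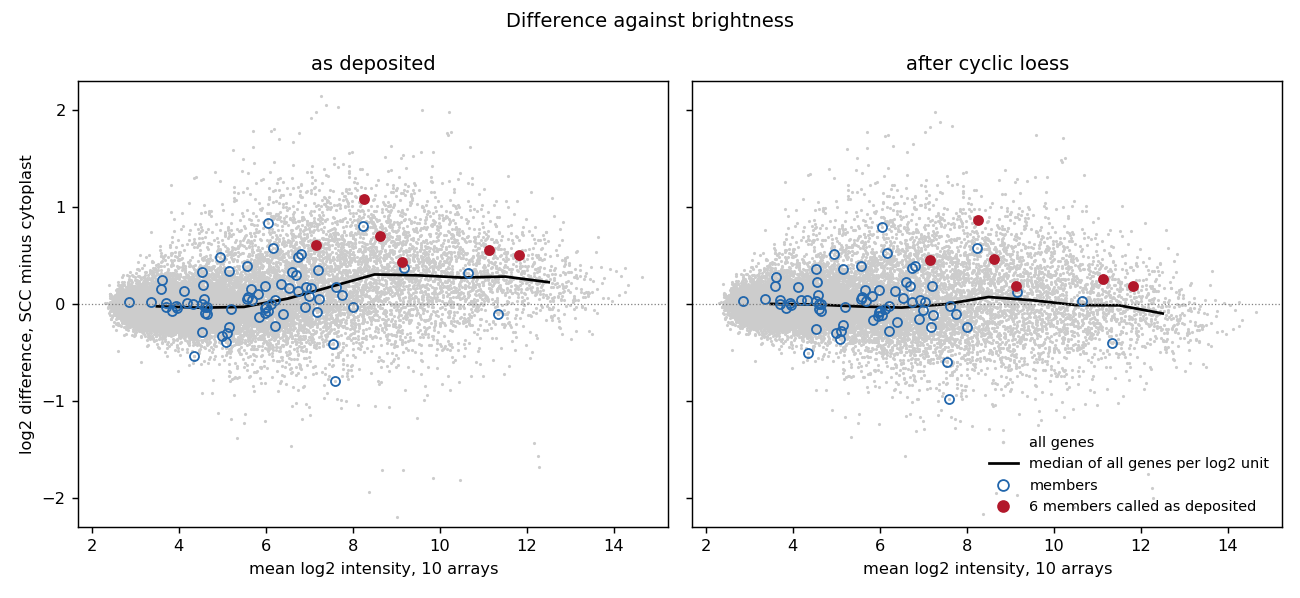
SCC minus cytoplast log2 difference against mean log2 intensity over the 10 arrays, as deposited (left) and after cyclic loess (right). Grey points are all 18193 genes, the black line their median per log2 unit, open circles members and filled circles the 6 members that passed as deposited; these stay above 0 after cyclic loess, where none of them passed.

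Of 80 further probe sets of members, 47 passed the filter, and 33 of these had the same sign as the brightest probe set of their gene. Those called were the 2 of Mrps9 already given and 1 of Mrps25, a mitochondria-specific small subunit protein, which was chosen after its values were seen. On that dimmer probe set Mrps25 was at 128.9, 141.9 and 134.3 in the SCC and at 83.4, 87.5, 96.5 and 91.6 in the cytoplast, not above background on any cytoplast array. The 134.3 of SCC replicate 3 was also below the background level of its array (158.5). Mrps25 was at least 1.33-fold higher in the SCC on this probe set (limma adjusted p = 0.0269). Its brighter probe set gave 94.2, 120.5 and 125.3 in the SCC and 128.4, 110.3, 108.1 and 112.6 in the cytoplast, not above background on any SCC array (limma adjusted p = 0.944). The probe sets of Mrps25 therefore disagree.

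Against the intact MII oocyte, no member passed in the SCC, higher or lower, by limma. At an unadjusted p under 0.05, 7 were higher and 1 lower. Among all genes tested 0.0472% were higher and 0% lower by adjusted p, and 9.45% and 3.83% by unadjusted p. The median member difference was 0.04, with 45 positive and 31 negative, against -0.0070 over all genes. Mrps9 had the largest (log2 0.95, SE 0.29, limma adjusted p = 0.20), and Mrpl57, below background on every array, the smallest adjusted p (limma, 0.164). Of the 6 members called against the cytoplast, Mrpl32 (log2 0.48), Mrps9 and Mrps14 (log2 0.41) had no overlap between SCC and MII oocyte arrays, whereas Mrps2 (log2 0.17), Mrps33 (log2 0.32) and Mrpl44 (log2 0.35) overlapped. In all, arrays did not overlap for 7 members with the SCC higher (9.21%, against 7.56% of genes) and 2 with it lower (2.63%, against 5.57%). This comparison and the one with the cytoplast share the SCC arrays. Without MII oocyte replicate 3, 1 member was lower in the SCC by limma, Mrpl11, the counterpart of a bacterial protein of the stalk base. It was at 134.6, 141.7 and 168.4 in the SCC and at 323.9, 129.7 and 242.3 in the MII oocyte, the middle value being that of replicate 3. With all arrays the log2 difference on this probe set of Mrpl11 was -0.555 (limma adjusted p = 0.482). On its dimmer probe sets that were tested it was -0.383 and -0.09 (limma adjusted p = 0.64 and 0.826). Calls over all probe sets without MII oocyte replicate 3 are not given here, so the call of Mrpl11 is not read as particular to it.

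Between the cytoplast and the MII oocyte no member passed by limma, and all 76 differed by less than 0.5 on the log2 scale. No gene was called in either direction in this comparison (0%), and at an unadjusted p under 0.05 none of the members was higher and 3 were lower, against 0.928% and 3.75% of genes. The 3 were Mrps2 (log2 -0.26) and, below background, Mrpl15 and Mrpl54, each with a limma adjusted p of 0.926. The median member difference was -0.05, with 27 positive and 49 negative, against -0.03 over all genes. It was 0.0050 after cyclic loess, where 39 were positive, so no direction is given. Arrays did not overlap for 1 member with the cytoplast higher, Mrps27 (1.32%, against 2.01% of genes), and 4 with it lower (5.26%, against 3.81%).

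Other genes of mitochondrial translation were read from lists of names. Of 22 genes of mitoribosome assembly, 18 were tested, 2 were higher in the SCC than the cytoplast and none was lower by limma (5 higher and 1 lower at an unadjusted p under 0.05), with a median difference of 0.05 over the 22. The share called higher was 11.1%, against 8.03% of all genes tested, and 18.4% of genes were higher by unadjusted p. Gtpbp10, a GTPase that acts in large subunit assembly in human cells, was at 905.5, 941.0 and 1135 in the SCC and at 442.2, 390.1, 463.5 and 469.2 in the cytoplast. The MII oocyte values of 564.8, 547.6 and 558.9 lay between, with no overlap. Gtpbp10 was 2.25-fold higher in the SCC than the cytoplast (log2 1.17, SE 0.12, limma adjusted p = 0.00216). It passed in every alternative run, with log2 differences of 0.84 to 1.23 and adjusted p from 0.000607 to 0.0186. Rpusd4, a pseudouridine synthase that acts on mitochondrial RNA, averaged 996.5 ± 92.5 in the SCC, against 698.0 ± 50.6 in the cytoplast (log2 0.51, limma adjusted p = 0.042) and did not pass after cyclic loess, after quantile normalization, with an intensity trend, or without SCC replicate 2 or 3, any 1 cytoplast array or MII oocyte replicate 4.

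Of 13 translation factors and RNA-stabilising genes, 10 were tested. Gfm1 and Lrpprc were higher in the SCC than the cytoplast and none was lower by limma (3 higher and 1 lower at an unadjusted p under 0.05), with a median difference of 0.06 over the 13. The share called higher was 20.0%, against 8.03% of all genes tested. That share counts Lrpprc, which passed the filter only through the 3 SCC arrays and so is not read as support. It was at 16.4, 16.68 and 16.5 there, against array medians of 15.71, 15.95 and 15.76, and under the median on every cytoplast and MII oocyte array. Gfm1, the elongation factor that moves the mitochondrial ribosome along its message, was at 1161, 1432 and 1455 in the SCC and at 837.2, 880.6, 989.7 and 1027 in the cytoplast (log2 0.53, SE 0.12, limma adjusted p = 0.0263). Gfm1 did not pass after cyclic loess, after quantile normalization, with an intensity trend or with probe sets averaged per gene. Nor did it pass without SCC replicate 2 or 3 or cytoplast replicate 1 or 2, and on its second probe set the log2 difference was -0.011. Lrpprc, which stabilises mitochondrial messages, passed (limma adjusted p = 0.0343) but was below background on every array, and it did not pass after quantile normalization, with the replicate number as a block or once any 1 SCC or cytoplast array was left out. None of the 4 mitoribosome genes under other names passed by limma, though Ptcd3 and Chchd1 were higher at an unadjusted p under 0.05. Ptcd3 averaged 237.2 ± 24.9 in the SCC, against 181.9 ± 9.997 in the cytoplast (log2 0.38, limma adjusted p = 0.0831). Chchd1 averaged 74.6 ± 9.82 in the SCC, against 43.0 ± 11.3 in the cytoplast, below background (limma adjusted p = 0.165).

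Of 19 mitochondrial tRNA synthetase and amidotransferase genes 11 were tested, and of 10 genes of mitochondrial DNA transcription and replication 7. None passed by limma in either list. At an unadjusted p under 0.05 the first list had 1 higher and 1 lower, and the second none. Gatb, of the glutamyl-tRNA amidotransferase, had 69.0 ± 4.11 in the SCC against 55.7 ± 6.83 in the cytoplast (limma adjusted p = 0.172), and the tryptophanyl-tRNA synthetase gene Wars2 49.5 ± 2.70 against 60.7 ± 4.96 (limma adjusted p = 0.158), all below background. In the second list the smallest p belonged to Polg, the mitochondrial DNA polymerase (50.4 ± 12.2 in the SCC, 63.2 ± 8.89 in the cytoplast, limma adjusted p = 0.289), and Tfam, which packages mitochondrial DNA (18.1 ± 1.09 in the SCC, 17.5 ± 1.06 in the cytoplast, limma adjusted p = 0.866), also below background. The median differences were -0.02 and -0.03. For comparison, 5 of 38 cytosolic ribosomal protein genes tested and 6 of 67 nuclear genes of oxidative phosphorylation tested were higher in the SCC than the cytoplast and none was lower, with medians of 0.19 and 0.12 over the 46 and 81 genes measured, and 0.08 and 0.03 after cyclic loess. The shares called higher were 13.2% and 8.96%, against 8.03% of all genes tested, of which 0.275% were lower. Whether the mitochondrial ribosomal protein genes differ from these families was not tested.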

How the data were processed

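The authors deposited 1 table of linear intensity values, 45101 probe sets by 10 arrays. RMA is named in the submitters' processing notes, with no version, and up to 50 ng of RNA went through 2 rounds of amplification before 10 µg of cRNA was hybridised, per the labels' protocols. Log2 was taken here. Probe sets above the median of their array on at least 3 arrays (23737, controls left out) were fitted with limma 3.58.1 in R 4.3.3, 1 mean per group over all 10 arrays, with Benjamini-Hochberg adjustment over all of them at a threshold of 0.05. The code of the fit was run on simulated data with larger changes than those of the genes reported here, so that run does not vouch for these calls. Alternatives changed the scaling, the filter, the moderation, the probe set taken and the arrays or covariates in the fit. Genes were named from the platform annotation, and all 76 members matched RefSeq of GRCm38.p6 by gene ID. Where a group had no array above background, a fold is a lower bound against the background level.

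The members and lists were chosen with earlier results of these data known. Named members are those past the threshold, the 10 largest SCC minus cytoplast differences, the 6 brightest and the 4 dimmest, and in each pathway list the genes past the threshold and the 2 with the smallest p; other members named were chosen after their values were seen. Mrpl57 and Mrpl58 were put in a structural class after the annotation was read.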

Additional observations from a re-analysis of the deposited data

Results flagged for a closer look

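In the cytoplast, the group with 4 arrays, the gap between the outermost array and its nearest neighbour was large relative to the whole range for 2 of the 19 named members, a test that chance meets in about 1 of 20 groups. Cytoplast replicate 3 stood above the other cytoplast arrays for Mrps2, at an intensity of 529.0 and still below the lowest SCC array (603.0). Cytoplast replicate 2 stood below the others for Mrps34, at 10.4, on a probe set that was below background on every array.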

How the results depend on the processing

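The count of 6 members higher in the SCC than the cytoplast became 0 after cyclic loess and 0 after quantile normalization, and 2 (Mrpl32 and Mrps9) with an intensity trend. The second brightest probe sets gave 2 among 29 members (Mrps9 and Mrps25). With the filter dropped the count was 4, with a 75th percentile filter 8, with only both groups compared in the fit 7, with probe sets averaged per gene 4 and with the level of the spiked-in hybridisation controls as a covariate, added after seeing the data, 10. Deviations from the group means correlated at 0.0215 on average over the 8 pairs of same-numbered arrays (-0.304 to 0.614), which does not show the arrays to be paired. With the replicate number as a block the count was 5: Mrps14 and Mrps2 were no longer called, Mrpl22 was, and 1 member, Mrpl48, was lower (log2 -0.90, adjusted p = 0.0319); MII oocyte and cytoplast comparisons kept 0 calls under the block. Leaving out 1 array at a time gave 0 to 8 members higher and 0 to 1 lower against the cytoplast, and against the MII oocyte 0 higher and 0 to 1 lower, the 1 (Mrpl11) without MII oocyte replicate 3. The cytoplast minus MII oocyte comparison had no call under any. Over all probe sets the higher calls were 1599, 505 after cyclic loess and 418 after quantile normalization. For the other alternatives the calls over all probe sets are not given here. Their member counts are therefore not read as particular to the members. Gfm1 turned from 0.53 to -0.011 on its second brightest probe set. The cause of these changes was not tested. The sign of Mrps25 depended on the probe set, and small differences in members near background may be missed.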
